A study of Homo sapiens with 18 samples.

Results

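The genes described here are 48 genes of the mitotic spindle, the kinetochore and the G2/M transition. They were picked by gene symbol from a list that leaves out cyclins, cyclin-dependent kinases and kinesins, apart from the kinesin CENPE. All 48 were present among the 21391 features of the inhibitor table and among the 18350 features of the siRNA table. Their transcripts were followed in 18 RNA-sequencing libraries from LNCaP cells, a line established from a human prostate cancer, grown with 10% fetal bovine serum. In the inhibitor experiment the cells received UPF1069, olaparib or veliparib at 10 uM over 24 h, and the control cells received DMSO, the vehicle, for the same time. In the knockdown experiment the cells were transfected for 72 h with siPARP1-A or siPARP1-B against PARP1, with siPARP2-A or siPARP2-B against PARP2, or with the control siRNA siNC. Each of the 9 groups held 2 libraries, described by the series as biological duplicates. What separates the duplicates is not given in the labels, so part of the spread between them may be technical. The p-values measure this spread pooled over all groups of an experiment and moderated across genes, not the spread within a single group. Both PARP1 and PARP2 are enzymes of the nucleus, activated by broken DNA, which modify proteins with ADP-ribose. Both are inhibited by olaparib and by veliparib, while UPF1069 is described as an inhibitor of PARP2. The question behind each comparison is how transcript levels respond when either enzyme is inhibited or its gene is knocked down.

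Mitotic genes are transcribed late in the cell cycle. In resting or early cycling cells they are repressed by DREAM, a complex built on the MuvB core proteins. In late S phase and G2 the same core joins the factors B-Myb, encoded by MYBL2, and FOXM1, and activates these genes. The MuvB core touches DNA at the cell cycle genes homology region (CHR), a short element close to the start site, often beside CCAAT boxes, which bind the factor NF-Y. Genes of DNA replication peak earlier and more often carry E2F sites. In bulk RNA a lower level of a mitotic transcript can come from fewer cells in G2 and mitosis or from less RNA per cell, and these cannot be told apart here.

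To show what these promoters look like, the 120 bases upstream of the annotated start are given for 5 members that behaved differently in the comparisons below. The sequences are RefSeq promoters on GRCh38.p14, each read along the gene's own strand. The deposited tables were made on hg19 and no coordinate was taken from them. Capitals mark the CHR letters TTTGAA or TTCGAA and the CCAAT box, on either strand, so that TTCAAA and ATTGG are the same elements on the other strand.
PLK1, chr16:23678769-23678888, plus strand: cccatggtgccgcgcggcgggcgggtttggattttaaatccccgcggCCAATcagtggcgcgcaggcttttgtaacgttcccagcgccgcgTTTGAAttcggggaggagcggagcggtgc
CDC20, chr1:43358861-43358980, plus strand: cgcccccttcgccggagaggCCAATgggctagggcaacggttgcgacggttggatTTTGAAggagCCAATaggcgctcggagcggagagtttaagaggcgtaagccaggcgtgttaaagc
MKI67, chr10:128126424-128126543, minus strand: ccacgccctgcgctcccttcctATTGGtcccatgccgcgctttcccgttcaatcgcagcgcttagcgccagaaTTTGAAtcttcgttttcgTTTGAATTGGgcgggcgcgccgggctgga
ANLN, chr7:36389742-36389861, plus strand: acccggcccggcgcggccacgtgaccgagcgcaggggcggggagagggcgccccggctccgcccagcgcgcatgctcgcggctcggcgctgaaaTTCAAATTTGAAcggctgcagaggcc
CDC25B, chr20:3786831-3786950, plus strand: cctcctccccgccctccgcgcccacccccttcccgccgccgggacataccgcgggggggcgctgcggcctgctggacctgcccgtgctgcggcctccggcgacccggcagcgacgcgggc

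In PLK1 the CHR letters began 29 bases before the start, with a CCAAT box 73 bases before it. CDC20 had its CHR 65 bases upstream between CCAAT boxes. MKI67 had 2 CHR matches, and the nearer one shares letters with an ATTGG. ANLN had 2 adjoining CHR matches and no CCAAT box in this stretch, and the CDC25B stretch held neither element. RefSeq promoters, from 250 bases before to 50 bases after the start, were found for 40 of the 48 members. For each gene the first listed promoter was scored, so letters at any other annotated start were not counted. CHR letters were present in 30 of these 40 promoters (75.0%), in 2 of 33 promoters of a DNA replication list (6.06%) and in 16.6% of the promoters of all 27305 genes. A CHR match started within 50 bases of the gene start in 25 of the 30. At least 2 CCAAT boxes were present in 50% of the members, 36.4% of the replication genes and 11.3% of all genes. The E2F letters TTTGGCGC or TTTCCCGC were present in 5.0% of the members, 45.5% of the replication genes and 2.31% of all genes. These shares describe letters in a window and are not evidence of binding.

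Depth was 26.43 to 35.7 M recovered reads per library in the inhibitor experiment and 15.45 to 18.62 M in the knockdown experiment. Values are counts per M reads (CPM) in the inhibitor table and normalised reads per M in the siRNA table. Since the tables were normalised separately, levels were not compared between them. At these depths 3 reads were worth 0.0841 to 0.113 CPM in the inhibitor table and 0.169 to 0.207 in the units of the siRNA table, and these floors cover counting error only. KRT8, a keratin of luminal prostate cells, ran at 458 to 649 CPM in the inhibitor table and at 452 to 1070 in the siRNA table. In the inhibitor table KRT14 of basal cells was at most 0.929 CPM and LUM of stroma and CD68 of macrophages at most 0.118 CPM, while COL1A1, a collagen gene, ran at 9.9 to 14 CPM. The chi-square per gene between duplicates, which is 1 for counting noise alone, ran from 1.31 for UPF1069 to 6.38 for veliparib in the inhibitor table and from 2.64 for siPARP1-A to 8.09 for siNC in the siRNA table. Log2 fold changes come from limma on log2(value + 1), a scale that makes changes of weakly expressed genes look smaller. A gene was called when its p-value, adjusted over all features tested by the Benjamini-Hochberg method, was below 0.05.

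UPF1069 and olaparib lowered nearly the whole set of mitotic genes. With UPF1069, 46 of the 48 genes fell and none rose, where 14.0% of the 13337 features tested fell and 10.3% rose. With olaparib, 48 of 48 fell, where 26.8% of all features fell and 25.8% rose. The median log2 fold change of the 48 genes was -0.52 with UPF1069, where all features had a median of -0.02, and -0.83 with olaparib, where all features had a median of 0.00. The 48 genes together summed to 2582 and 2564 CPM in the UPF1069 libraries and to 2070 and 2070 CPM in the olaparib libraries, against 3649 and 3677 CPM in the DMSO libraries. Both comparisons use the same DMSO libraries, so their values are given side by side only.

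**Figure D1:**
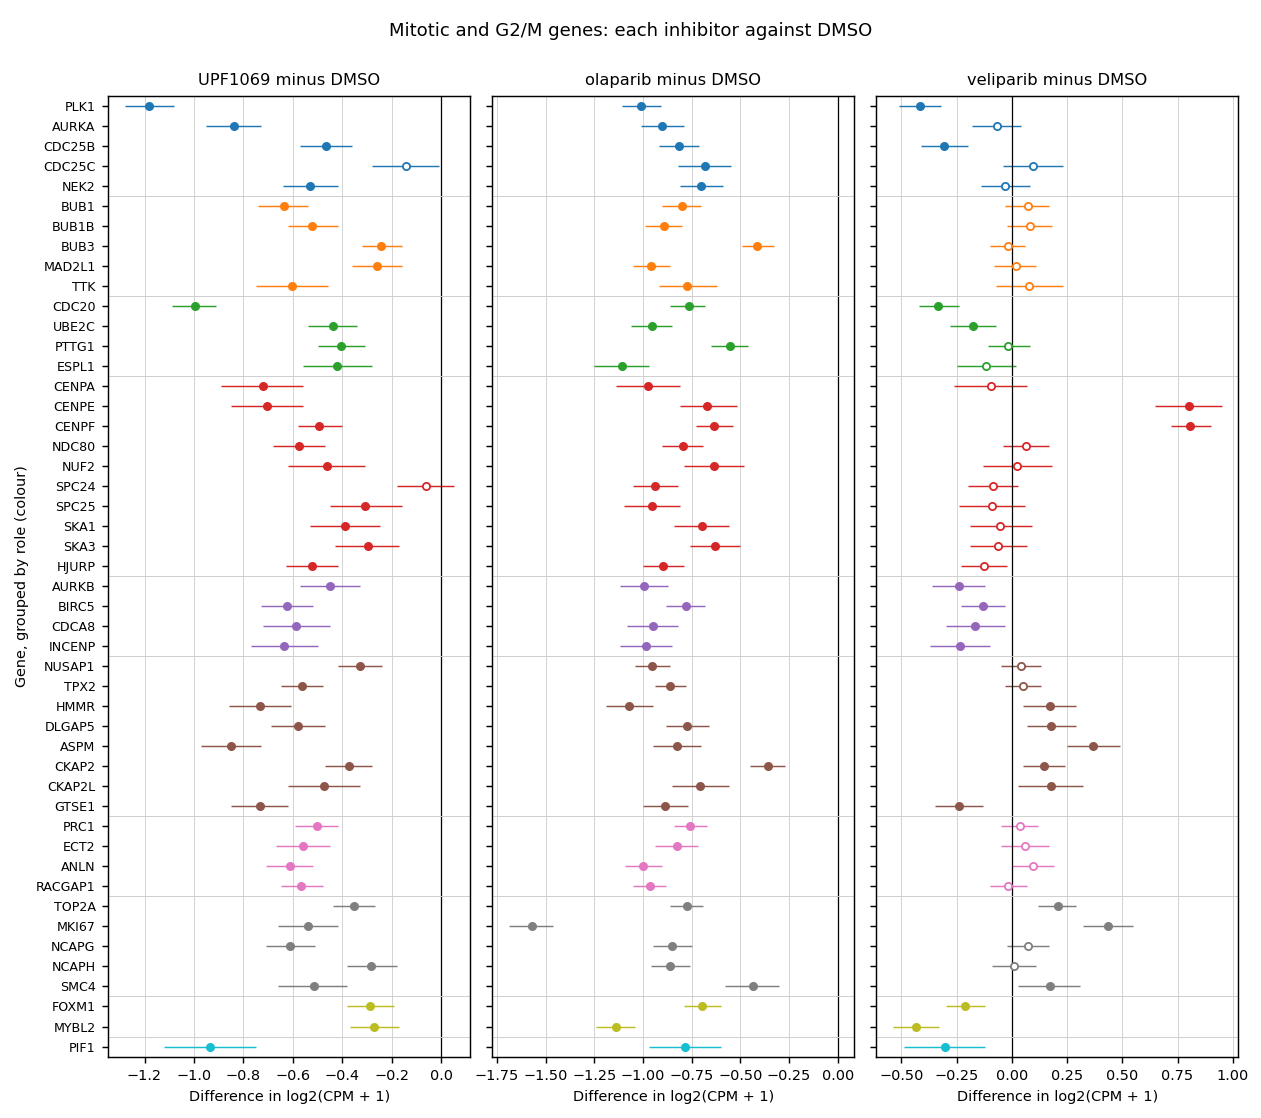
Difference in log2(CPM + 1) of each of the 48 genes, for UPF1069, olaparib and veliparib minus DMSO, with 95% confidence intervals from limma. Rows are grouped and coloured by role, filled points passed an adjusted p of 0.05, open points did not, and each panel has its own horizontal scale. With UPF1069 and olaparib the points lie left of 0, between -1.18 and -0.06 and between -1.57 and -0.36, while with veliparib they lie between -0.44 and 0.81.

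Among the kinases and phosphatases of mitotic entry, 4 of 5 fell with UPF1069 and 5 of 5 with olaparib. PLK1, the kinase that drives entry into mitosis and centrosome maturation, had 53.1 and 50.4 CPM with UPF1069 and 59.5 and 57.0 CPM with olaparib, against 118 and 119 CPM in DMSO. It had the largest fall of the 48 genes with UPF1069, with a log2 fold change of -1.18 (SE 0.048, adjusted p = 4.53e-14), and with olaparib the change was -1.01 (SE 0.048, adjusted p = 6.91e-14). PLK1 libraries of both inhibitors thus stood at less than the DMSO level without overlap, at 43.7% and 49.2% of the DMSO mean. AURKA, the kinase of spindle poles, had 40.1 and 37.8 CPM with UPF1069 and 36.6 and 37.8 CPM with olaparib, against 68.8 and 71.9 CPM in DMSO, and fell by 0.84 and 0.90 on the log2 scale. NEK2, a centrosome kinase, fell by 0.53 and 0.70, and CDC25B, a phosphatase that activates cyclin-dependent kinase, fell by 0.46 and 0.81. CDC25C, a phosphatase of the same family, separated the inhibitors. It had 22.3 and 20.9 CPM with UPF1069 and 14.4 and 14.6 CPM with olaparib, against 24.8 and 23.1 CPM in DMSO. It fell with olaparib (log2 fold change -0.68, adjusted p = 8.52e-09) and did not pass with UPF1069 (-0.14, adjusted p = 0.117), where a fit on the UPF1069 and DMSO libraries alone gave an adjusted p of 0.0385.

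All 5 genes of the spindle checkpoint fell with each of these inhibitors. This checkpoint holds cells in metaphase until every chromosome is attached. BUB1, a checkpoint kinase at the kinetochore, had 45.9 and 45.8 CPM with UPF1069 and 40.7 and 41.0 CPM with olaparib, against 72.0 and 71.6 CPM in DMSO. Its log2 fold changes were -0.64 and -0.80. BUB3, which docks BUB1 and BUBR1 at kinetochores, moved least of the 5, with 144 and 150.0 CPM under UPF1069 and 129 and 132 CPM under olaparib, against 172 and 176 CPM in DMSO, or -0.24 and -0.41. MAD2L1, the checkpoint effector that binds CDC20, had 90.2 and 91.3 CPM with UPF1069 and 55.6 and 55.5 CPM with olaparib, against 108 and 110.0 CPM in DMSO. Its fall was -0.26 with UPF1069 and -0.96 with olaparib, the largest of the checkpoint genes there. BUB1B, which encodes BUBR1, fell by 0.52 and 0.89, and the kinase TTK by 0.61 and 0.77.

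The 4 genes of anaphase onset fell with both inhibitors as well. CDC20, the activator of the anaphase-promoting complex, had 68.4 and 67.5 CPM with UPF1069 and 81.1 and 78.7 CPM with olaparib, against 137 and 136 CPM in DMSO. Its log2 fold changes were -1.0 (adjusted p = 1.43e-13) and -0.77 (adjusted p = 1.52e-12). ESPL1, the protease separase, had 27.9 and 28.5 CPM with UPF1069 and 16.6 and 17.6 CPM with olaparib, against 39.1 and 37.0 CPM in DMSO, or -0.42 and -1.11. PTTG1, which encodes securin, the inhibitor of separase, fell by 0.41 and 0.55, and UBE2C, the ubiquitin-conjugating enzyme of the complex, by 0.44 and 0.95. Reads of UBE2C can be shared with its annotated pseudogenes, so its level is less certain.

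At the centromere and kinetochore, 9 of 10 genes fell with UPF1069 and 10 of 10 with olaparib. CENPA, the histone that marks centromeres, had 13.7 and 12.9 CPM with UPF1069 and 10.2 and 11.8 CPM with olaparib, against 22.9 and 22.2 CPM in DMSO. It fell by 0.72 and 0.98, the most within this group in each comparison. CENPF, a large kinetochore protein, fell by 0.49 and 0.64, and the motor CENPE by 0.71 and 0.67. SPC24, a subunit of the NDC80 complex that holds microtubules, had 69.3 and 69.9 CPM with UPF1069 and 38.7 and 36.3 CPM with olaparib, against 71.4 and 74.2 CPM in DMSO. It fell with olaparib (-0.94, adjusted p = 2.29e-12) and did not pass with UPF1069 (-0.06, adjusted p = 0.435). The other subunits moved by -0.58 and -0.79 (NDC80), -0.46 and -0.64 (NUF2) and -0.31 and -0.96 (SPC25) with UPF1069 and olaparib, and all of these passed. The call of SPC25 with UPF1069 was lost without UPF1069 replicate 2 (adjusted p = 0.0538) or without DMSO replicate 2 (0.054).

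The 4 genes of the chromosomal passenger complex, which corrects wrong attachments and guides cytokinesis, fell with each inhibitor. AURKB, its kinase, had 26.4 and 28.2 CPM with UPF1069 and 19.0 and 17.8 CPM with olaparib, against 37.2 and 38.1 CPM in DMSO, or -0.45 and -0.99. INCENP, its scaffold, fell by 0.64 and 0.98, and BIRC5, which encodes survivin, by 0.62 and 0.78. Of the 8 spindle microtubule factors, all fell with both inhibitors. ASPM, a spindle pole protein, had 22.4 and 22.5 CPM with UPF1069 and 22.1 and 23.6 CPM with olaparib, against 41.4 and 41.1 CPM in DMSO, and had the largest fall of this group with UPF1069 (-0.85). HMMR, a spindle protein that is also a hyaluronan receptor, fell by 0.73 with UPF1069 and by 1.07 with olaparib, the largest of this group there. The 4 cytokinesis genes fell by 0.50 to 0.61 with UPF1069 and by 0.76 to 1.0 with olaparib, led in both by ANLN, the contractile ring protein anillin.

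Among the chromosome structure genes, all 5 fell with each inhibitor. MKI67, the proliferation antigen Ki-67 that coats mitotic chromosomes, had 27.9 and 26.8 CPM with UPF1069 and 12.9 and 12.8 CPM with olaparib, against 39.3 and 41.0 CPM in DMSO. Its fall with olaparib, to 32% of the DMSO mean, was the largest of the 48 genes (log2 fold change -1.57, SE 0.056, adjusted p = 4.43e-16), and its fall with UPF1069 was -0.54 (adjusted p = 2.46e-07). TOP2A, the topoisomerase that untangles sister chromatids, had 141 and 142 CPM with UPF1069 and 104 and 108 CPM with olaparib, against 180.0 and 182 CPM in DMSO, or -0.35 and -0.77. The condensin subunits NCAPG, NCAPH and SMC4 fell by 0.61, 0.28 and 0.52 with UPF1069 and by 0.85, 0.86 and 0.44 with olaparib.

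The transcription factors of this set fell less than most of its genes with UPF1069. FOXM1 had 68.1 and 68.2 CPM with UPF1069 and 50.6 and 51.5 CPM with olaparib, against 82.1 and 84.7 CPM in DMSO, or -0.29 and -0.70. MYBL2 had 108 and 110.0 CPM with UPF1069 and 57.7 and 61.1 CPM with olaparib, against 133 and 131 CPM in DMSO, or -0.27 and -1.14. MYBL2 libraries with olaparib thus lay below those with UPF1069, which in turn lay below DMSO. PIF1, a DNA helicase of low abundance, had 5.49 and 5.42 CPM with UPF1069 and 5.9 and 6.47 CPM with olaparib, against 10.9 and 11.9 CPM in DMSO. It fell by 0.94 and 0.78.

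**Figure D2:**
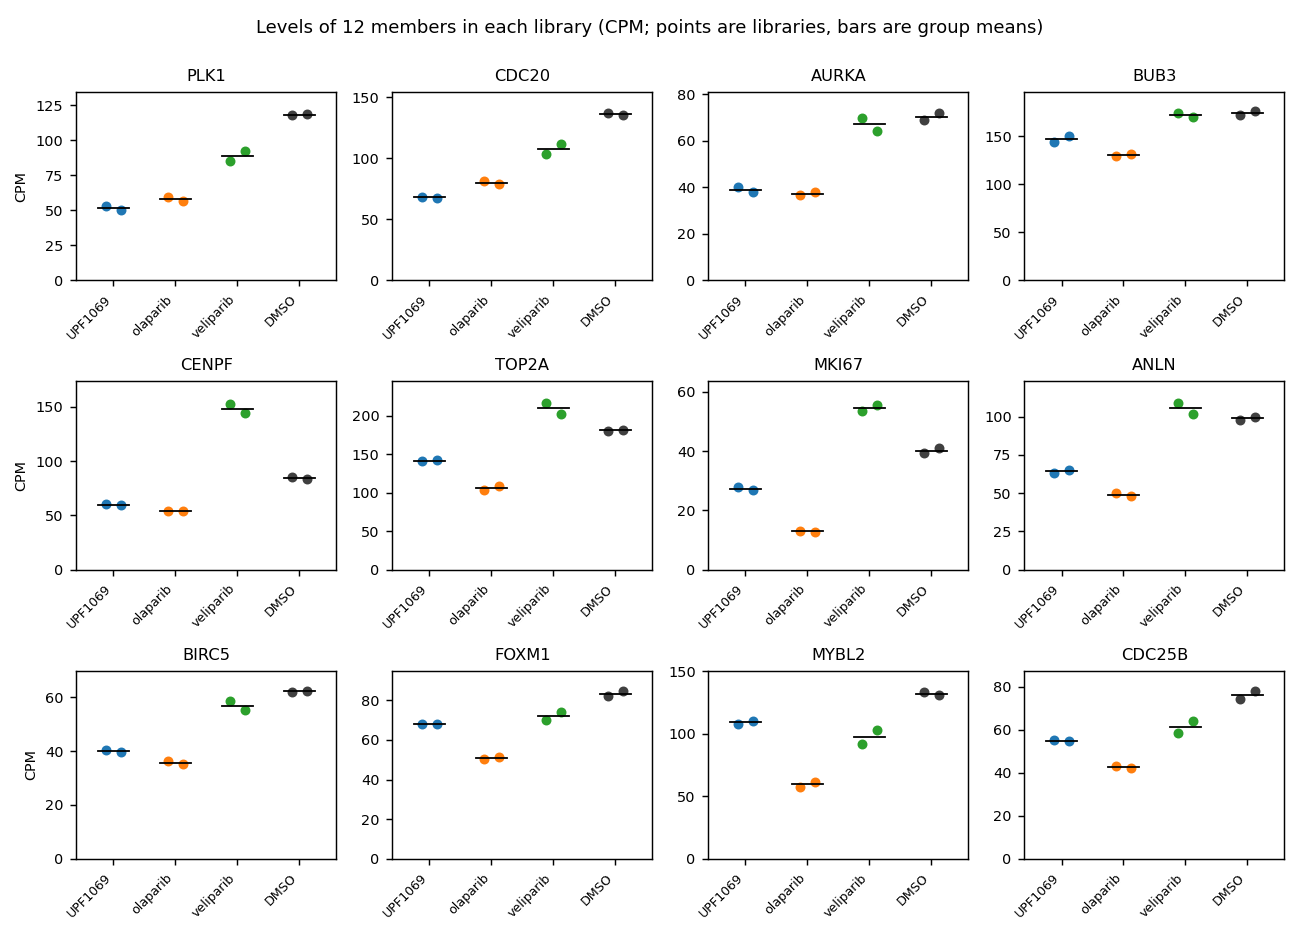
Level in CPM of 12 of the genes in each inhibitor library, from left to right UPF1069, olaparib, veliparib and DMSO, with points for the 2 libraries of a group and bars for their mean. PLK1 stands at 51.7 CPM with UPF1069 and 118 CPM in DMSO, and CENPF stands at 149 CPM with veliparib and 85.1 and 83.9 CPM in the DMSO libraries.

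With veliparib, 10 of the 48 genes rose and 12 fell, where 17.2% of all features rose and 23.2% fell, and the median log2 fold change was 0.00. These counts are near the shares over all features and are not a result about the set, so single genes are described. The kinetochore genes CENPF and CENPE led the genes that rose. CENPF had 153 and 144 CPM with veliparib, against 85.1 and 83.9 CPM in DMSO (log2 fold change 0.81, SE 0.044, adjusted p = 2.79e-11), and CENPE had 48.3 and 42.4 CPM with veliparib, against 25.2 and 26.0 CPM in DMSO (0.80, adjusted p = 1.42e-08). MKI67 had 53.6 and 55.7 CPM with veliparib, against 39.3 and 41.0 CPM in DMSO (0.43, adjusted p = 2.47e-06), so veliparib and DMSO did not overlap for any of these 3 genes. ASPM rose by 0.37 and TOP2A by 0.21, and DLGAP5, CKAP2L, HMMR, SMC4 and CKAP2 rose by 0.15 to 0.18.

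MYBL2, PLK1 and CDC20 had the largest falls with veliparib. MYBL2 had 92.1 and 103 CPM with veliparib, against 133 and 131 CPM in DMSO (-0.44, adjusted p = 3.84e-07), and FOXM1 fell by 0.21. PLK1 had 85.1 and 92.2 CPM with veliparib, against 118 and 119 CPM in DMSO (-0.41, adjusted p = 5.51e-07). CDC20 had 104 and 112 CPM with veliparib, against 137 and 136 CPM in DMSO (-0.33, adjusted p = 2.65e-06). CDC25B fell by 0.31, PIF1 by 0.30, AURKB and GTSE1, a microtubule regulator, by 0.24, INCENP by 0.23, UBE2C by 0.17, CDCA8, the passenger protein borealin, by 0.16 and BIRC5 by 0.13. AURKA (-0.07, adjusted p = 0.336), BUB1 (0.07, adjusted p = 0.236), BUB3 (-0.02, adjusted p = 0.754) and PTTG1 (-0.02, adjusted p = 0.808) did not pass, and their 95% intervals are drawn in the plot of differences from DMSO.

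The veliparib differences moved with base composition. Across 13075 features, Spearman's rho between the veliparib log2 fold change and the GC content of the longest transcript was -0.689, where it was 0.107 for UPF1069 and -0.118 for olaparib. Genes are not independent replicates, so these correlations are descriptions. The 10 members that rose with veliparib had a median GC content of 37.8% and a median transcript length of 5614 bases, and the 12 that fell had 56.4% and 2707 bases. After a correction for GC content and length, 5 members rose and 7 fell. The shares over all features under the correction are not given here, so single genes are described. CENPE then rose by 0.62, CENPF by 0.61, MKI67 by 0.30, ASPM by 0.16 and TOP2A by 0.08 (adjusted p = 0.05), PLK1 fell by 0.25 and UBE2C by 0.18, and MYBL2 fell by 0.19 and CDC20 by 0.15. BUB3 and SPC25, which did not pass before, fell by 0.17 and 0.19 after the correction, and MAD2L1, at 0.02 before, was at -0.10 (adjusted p = 0.0278). The correction ended the calls of all 4 passenger complex genes, with AURKB at -0.12 (adjusted p = 0.1), CDCA8 at -0.10 (0.194), BIRC5 at -0.05 (0.445) and INCENP at -0.01 (0.876). It also ended those of FOXM1 (-0.07, adjusted p = 0.163), GTSE1, CDC25B, PIF1, HMMR, DLGAP5, CKAP2, CKAP2L and SMC4. Without DMSO replicate 1, 13 members were called in place of 22, and SMC4 was at 0.00 (adjusted p = 0.989) without veliparib replicate 1. The same setting gave adjusted p-values above 0.05 for HMMR, DLGAP5, CKAP2, CKAP2L, CDCA8 and INCENP. Any part of base composition in the veliparib differences beyond this correction was not tested.

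**Figure D3:**
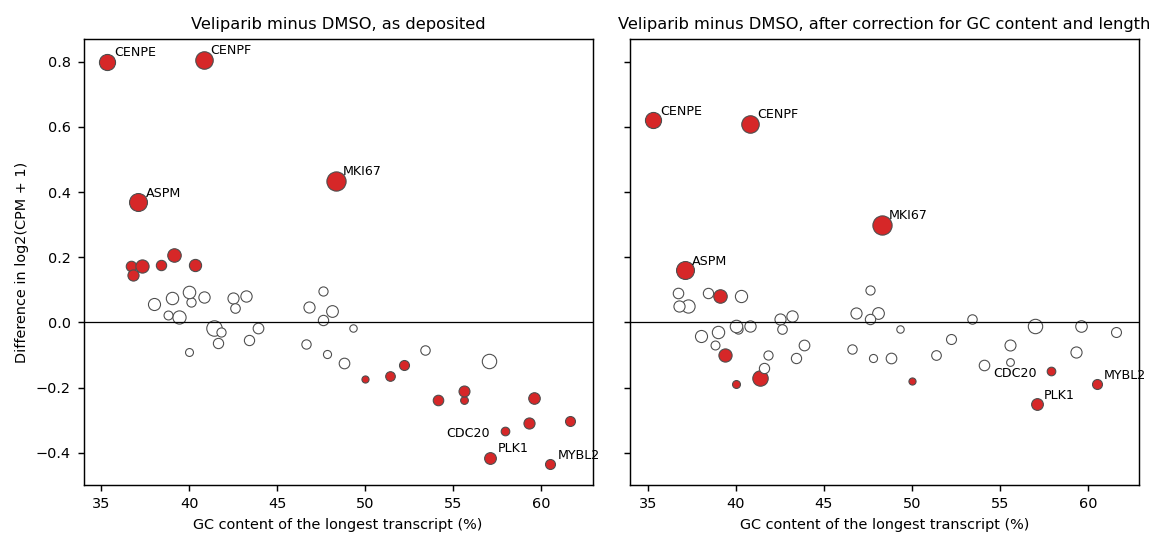
Difference in log2(CPM + 1), veliparib minus DMSO, of the 48 genes against the GC content of their longest transcript, as deposited (left) and after correction for GC content and transcript length (right). Red points passed an adjusted p of 0.05 and point area grows with transcript length. CENPE and CENPF stay highest, at 0.80 and 0.81 before and at 0.62 and 0.61 after the correction, while most other points move towards 0.

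The inhibitors were also set against each other in 3 pairs, at the same dose and time. UPF1069 left 38 of the 48 genes higher and 2 lower than olaparib did, where 24.2% of all features were higher and 27.0% lower, with a median of 0.28. The 2 lower genes were CDC20 (-0.23, 95% interval -0.32 to -0.14, adjusted p = 0.000132) and PLK1 (-0.17, -0.27 to -0.07, adjusted p = 0.0056). The PLK1 difference lost its call without UPF1069 replicate 2 (adjusted p = 0.103) or olaparib replicate 1 (0.0813). MKI67 was 1.03 higher (adjusted p = 8.81e-13), MYBL2 and SPC24 0.87, MAD2L1 0.70, ESPL1 0.69 and NUSAP1, a spindle microtubule binder, 0.62 higher on the log2 scale. AURKB and CDC25C were 0.54 higher, TOP2A 0.42, FOXM1 0.41, RACGAP1, a regulator of the cleavage furrow, 0.40, ANLN 0.39, BUB3 0.17, BUB1 0.16, PTTG1 0.15 and CENPF 0.14, and the calls of BUB1, PTTG1 and CENPF were lost with some single libraries left out. For 8 genes the difference did not pass, and for AURKA (0.06, adjusted p = 0.319), ASPM (-0.02, 95% interval -0.15 to 0.10), CKAP2 (-0.01, -0.11 to 0.08) and CENPE (-0.04, -0.18 to 0.11) the libraries of the inhibitors overlapped. PIF1 was at -0.15 (adjusted p = 0.156). Measured from DMSO, the largest falls were those of PLK1 and CDC20 with UPF1069 and those of MKI67 and MYBL2 with olaparib.

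Against veliparib, UPF1069 left 45 genes lower and 1 higher, where 24.9% of all features were lower and 25.9% higher. CENPE was at -1.51, CENPF at -1.30, ASPM at -1.22, MKI67 at -0.97, PLK1 and AURKA at -0.77, BUB1 and ANLN at -0.71, CDC20 at -0.66, PIF1 at -0.64, TOP2A at -0.56, BIRC5 at -0.50, PTTG1 at -0.39, BUB3 at -0.23 and AURKB at -0.21. Spearman's rho between the log2 fold change and GC content across the 13075 features was 0.635 for UPF1069 against veliparib and 0.333 for olaparib against veliparib. The correction for GC content and length left 44 genes lower and 0 higher with UPF1069, and 48 lower with olaparib. The shares over all features under the correction are not given here. The gene that was higher with UPF1069, MYBL2 (0.16), was at -0.09 after the correction, and FOXM1, which did not pass before (-0.08), was at -0.21 (adjusted p = 2.83e-05). BUB3 (adjusted p = 0.121), SPC25 (0.382) and SKA3 (0.0693) lost their calls under the correction. AURKB lost its call without UPF1069 replicate 1 (adjusted p = 0.0889). MYBL2 was at 0.08 (adjusted p = 0.0811) without veliparib replicate 1. Olaparib left all 48 genes lower than veliparib did, where 27.7% of all features were lower and 31.7% higher, with a median of -0.84. MKI67 was at -2.01, CENPE at -1.47, CENPF at -1.44, HMMR at -1.24, ANLN at -1.09, ESPL1 at -0.99, BUB1B and TOP2A at -0.98, BUB1 at -0.87, AURKA at -0.84, CDCA8 at -0.79, AURKB at -0.76, MYBL2 at -0.70, PLK1 at -0.60, PTTG1 at -0.54, FOXM1 at -0.49, PIF1 at -0.48, CDC20 at -0.43 and BUB3 at -0.40.

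In the knockdown experiment the targeted transcripts were read first. PARP1 had 4.78 and 5.67 normalised reads per M with siPARP1-A, 8.99 and 9.05 with siPARP1-B, 409 and 395 with siPARP2-A and 160.0 and 145 with siPARP2-B, against 452 and 479 with siNC. PARP2 had 22.1 and 20.9 with siPARP1-A, 19.8 and 18.0 with siPARP1-B, 3.06 and 2.56 with siPARP2-A and 1.78 and 1.01 with siPARP2-B, against 29 and 25.8 with siNC. Each siRNA thus lowered its own target, and siPARP2-B also lowered PARP1 (log2 fold change -1.60, adjusted p = 7.66e-16), where siPARP2-A changed it by -0.21 (adjusted p = 0.0194). PARP2 also fell with siPARP1-A (-0.34, adjusted p = 0.0417) and siPARP1-B (-0.51, adjusted p = 0.00429). All 4 comparisons with siNC share the same control libraries. Of the 48 genes 47 were tested, since PIF1 averaged under 1 over the table, with 1.39 and 1.34 with siPARP1-A, 1.33 and 0.967 with siPARP1-B, 0.612 and 0.75 with siPARP2-A and 0.238 and 0.113 with siPARP2-B, against 1.17 and 0.804 with siNC.

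siPARP2-B lowered almost the whole set. Of the 47 genes 45 fell and 1 rose, where 35.2% of the 12701 features tested fell and 30.9% rose, and 43 fell by at least 1 on the log2 scale. The median log2 fold change was -2.39, where all features had a median of -0.03. The members summed to 542.3 and 509.9 normalised reads per M with siPARP2-B, against 1692 and 1634 with siNC. TOP2A had 5.0 and 4.0 with siPARP2-B, against 87.9 and 84.9 with siNC, a log2 fold change of -4.00 (SE 0.081, adjusted p = 1.27e-22) and 5.21% of the siNC mean. ANLN had 5.17 and 3.61 with siPARP2-B, against 67.9 and 59.9 with siNC (-3.60, adjusted p = 4.56e-20). NUSAP1 fell by 3.47, HJURP, the chaperone of CENPA, by 3.46, MYBL2 by 3.43 and BIRC5 by 3.06. PTTG1 fell by 2.84, CENPF by 2.81, NEK2 by 2.52, FOXM1 by 2.47, TTK by 2.38, CDC20 by 2.37, PLK1 by 2.32, AURKB by 2.20, BUB1 by 1.79 and AURKA by 1.44. MKI67 had 0.476 and 0.733 with siPARP2-B, against 6.75 and 11.1 with siNC, or 6.75% of the siNC mean. The added 1 shrinks its log2 fold change, which was -2.60. AURKB and FOXM1, also low with siPARP2-B, stood at 11.5% and 9.09% of the siNC mean, and their changes are shrunk likewise.

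Few members stood outside this fall with siPARP2-B. BUB3 rose, with 192 and 177 normalised reads per M with siPARP2-B, against 128 and 121 with siNC (0.57, SE 0.058, adjusted p = 5.01e-09). CDC25B had 9.46 and 13 with siPARP2-B, against 12.3 and 12.1 with siNC (-0.13, adjusted p = 0.411), and it was the member whose libraries overlapped. Without siPARP2-B replicate 2 it was called lower (adjusted p = 0.0469). SMC4 fell by 0.27 (adjusted p = 0.00271) and INCENP by 0.56 (adjusted p = 0.000595). Whether the fall of PARP1 in these libraries has a part in the change of the mitotic genes was not tested.

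**Figure D4:**
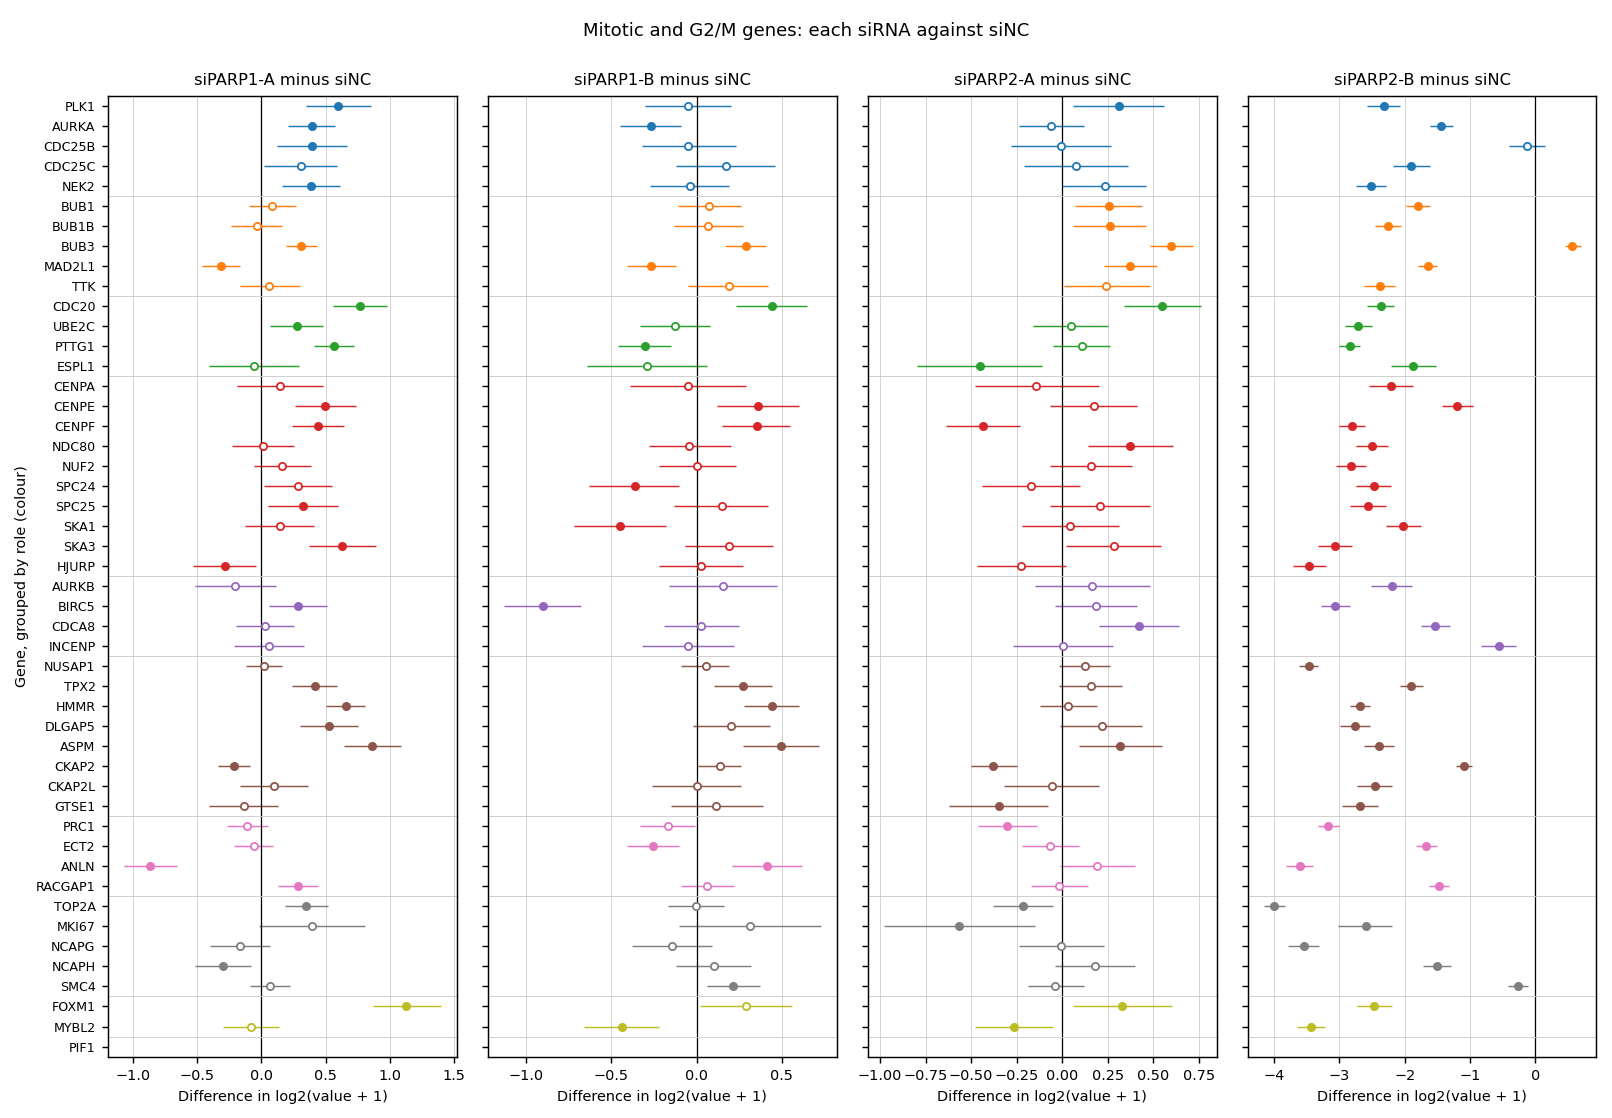
Difference in log2(value + 1) of the genes for siPARP1-A, siPARP1-B, siPARP2-A and siPARP2-B minus siNC, with 95% confidence intervals from limma. Filled points passed an adjusted p of 0.05, colours group genes by role, each panel has its own horizontal scale, and PIF1 was not tested. With siPARP2-B the points lie between -4.00 and 0.57, and with siPARP2-A between -0.57 and 0.60.

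siPARP1-A raised more of the mitotic genes than it lowered. Of 47 genes 20 rose and 5 fell, where 25.5% of all features rose and 28.9% fell, with a median of 0.16. FOXM1 had 22.7 and 20.1 normalised reads per M with siPARP1-A, against 10.5 and 8.04 with siNC (1.13, SE 0.13, adjusted p = 6.03e-08). CDC20 had 39.8 and 36.6 with siPARP1-A, against 20.7 and 23.3 with siNC (0.77, adjusted p = 6.3e-07), and PLK1 had 21.9 and 17.7, against 12 and 13.3 with siNC (0.60, adjusted p = 0.00018). ASPM rose by 0.87, HMMR by 0.66, SKA3, a subunit of the SKA complex that couples kinetochores to microtubules, by 0.63, PTTG1 by 0.57, CENPF by 0.44, AURKA by 0.39, TOP2A by 0.35, BUB3 by 0.31 and BIRC5 by 0.28. ANLN fell, with 35.7 and 33.4 with siPARP1-A, against 67.9 and 59.9 with siNC (-0.87, adjusted p = 7.53e-08). MAD2L1 fell by 0.32, NCAPH by 0.30, HJURP by 0.29 and CKAP2 by 0.21. AURKB (-0.21, adjusted p = 0.259), BUB1 (0.09, adjusted p = 0.443), MKI67 (0.39, adjusted p = 0.102) and MYBL2 (-0.08, adjusted p = 0.535) did not pass. SPC25 (0.32) moved between 0.16 and 0.49 as single libraries were left out, and lost its call without siNC replicate 1 or siPARP1-A replicate 2, while BIRC5 was at 0.17 (adjusted p = 0.308) without siNC replicate 2 and at 0.19 (0.271) without siPARP1-A replicate 2. HJURP lost its call with each of its 4 libraries left out and in 8 of 11 alternatives in all, and NCAPH lost it with DESeq2 and without siNC replicate 1 or siPARP1-A replicate 2.

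With siPARP1-B, 9 of 47 genes rose and 8 fell, where 16.4% of all features rose and 23.9% fell. These counts are near the shares over all features, so the values below describe single genes. BIRC5 had 12.9 and 12.4 normalised reads per M with siPARP1-B, against 26.6 and 22.5 with siNC (-0.90, adjusted p = 3.56e-07). SKA1 fell by 0.45, MYBL2 by 0.44, SPC24 by 0.36, PTTG1 by 0.30, MAD2L1 and AURKA by 0.27 and ECT2, the exchange factor that starts the cleavage furrow, by 0.25. ASPM rose by 0.50, CDC20 and HMMR by 0.44, ANLN by 0.41, CENPE by 0.36, CENPF by 0.35, BUB3 by 0.29, TPX2, an activator of AURKA, by 0.27 and SMC4 by 0.22. PLK1 (-0.05), AURKB (0.15), BUB1 (0.08), TOP2A (0.00), MKI67 (0.31, adjusted p = 0.225) and FOXM1 (0.29, adjusted p = 0.0791) did not pass. Without siPARP1-B replicate 2, 11 members were called in place of 17, and CENPF was at 0.21 (adjusted p = 0.168) and SMC4 at 0.14 (adjusted p = 0.275). Without siNC replicate 2, CENPE was at 0.20 (adjusted p = 0.273) and SPC24 at -0.24 (adjusted p = 0.265). AURKA, SKA1, ECT2, MAD2L1 and TPX2 also lost their calls with some single libraries left out. DESeq2 on the recovered reads called 10 members higher and 5 lower, and its shares over all features are not given here.

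With siPARP2-A, 10 of 47 genes rose and 8 fell, where 24.5% of all features rose and 24.9% fell, so neither count is above the share over all features. The members summed to 1767 and 1769 normalised reads per M, against 1692 and 1634 with siNC. BUB3 had 188 and 189 with siPARP2-A, against 128 and 121 with siNC (0.60, adjusted p = 6.91e-09). CDC20 had 31.7 and 33.5 with siPARP2-A, against 20.7 and 23.3 with siNC (0.55, adjusted p = 8.29e-05). CDCA8 rose by 0.42, MAD2L1 and NDC80 by 0.37, FOXM1 by 0.33, ASPM by 0.32, PLK1 by 0.31 and BUB1 and BUB1B by 0.26. CENPF had 42.1 and 35.3 with siPARP2-A, against 53.1 and 51.7 with siNC (-0.43, adjusted p = 0.000643). MKI67 fell by 0.57, ESPL1 by 0.45, CKAP2 by 0.38, GTSE1 by 0.35, PRC1, the bundler of the central spindle, by 0.30, MYBL2 by 0.27 and TOP2A by 0.22. AURKA (-0.06, adjusted p = 0.595), AURKB (0.17, adjusted p = 0.387) and PTTG1 (0.11, adjusted p = 0.249) did not pass.

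The siPARP2-A count rests on small changes. It was 9 without siNC replicate 2 or siPARP2-A replicate 2, 10 without siPARP2-A replicate 1 and 10 with DESeq2, in place of 18. MKI67 had 7.58 and 4.0 normalised reads per M with siPARP2-A, against 6.75 and 11.1 with siNC, so its libraries overlapped. Its value ran from -0.96 to -0.18 as single libraries were left out, and it lost its call without siNC replicate 2 (adjusted p = 0.432) or siPARP2-A replicate 2 (0.537). FOXM1 was at 0.50 without siNC replicate 1 and at 0.16 (adjusted p = 0.419) without siNC replicate 2. BUB3, CDC20, CDCA8, MAD2L1, CENPF, CKAP2 and PRC1 held their calls with each library left out in turn and with each alternative tried.

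**Figure D5:**
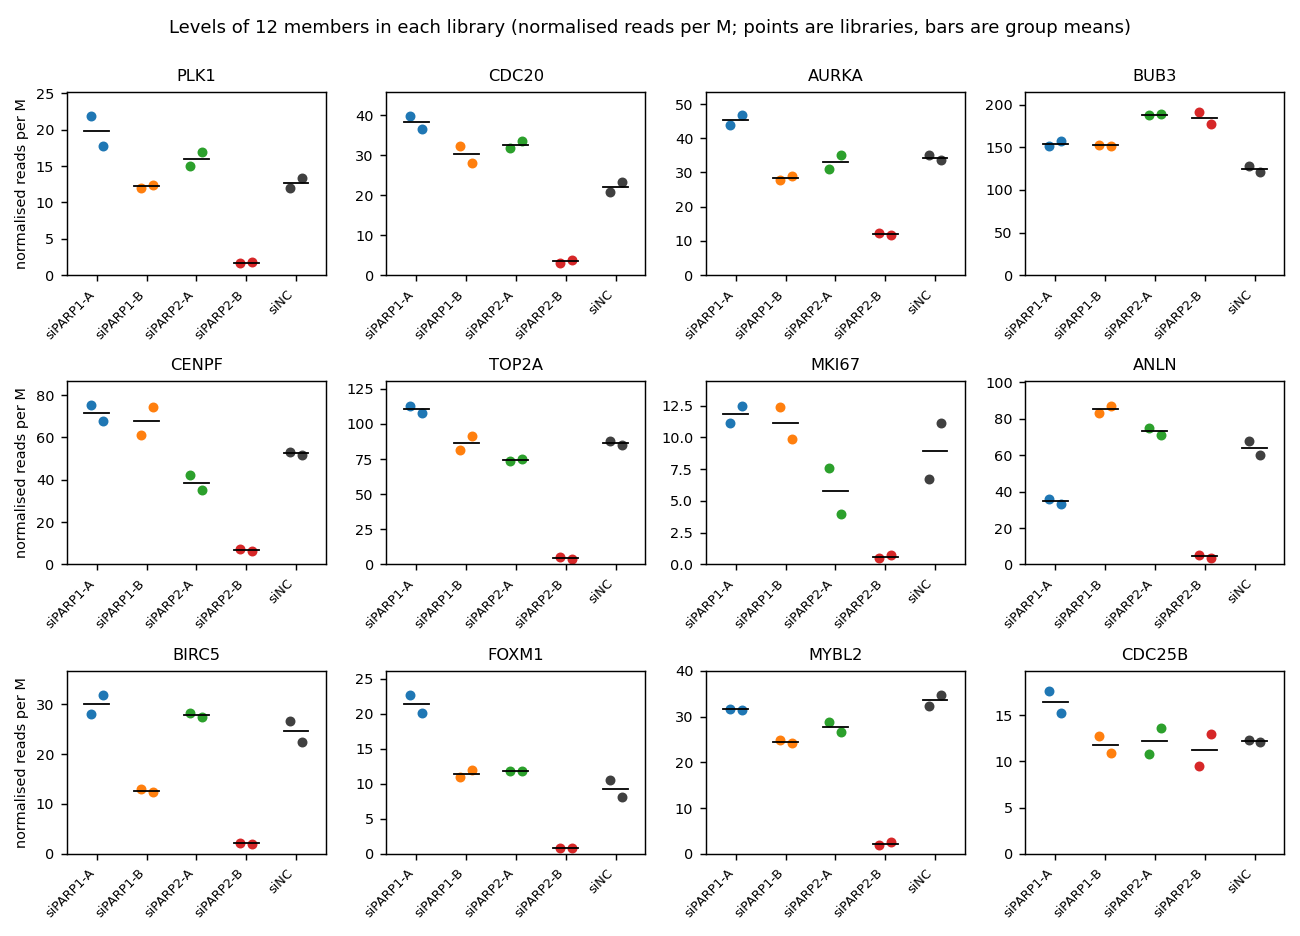
Level in normalised reads per M of 12 of the genes in each siRNA library, from left to right siPARP1-A, siPARP1-B, siPARP2-A, siPARP2-B and siNC, with points for libraries and bars for group means. TOP2A stands at 5.0 and 4.0 in the siPARP2-B libraries and at 87.9 and 84.9 in the siNC libraries, while BUB3 is higher than siNC with each siRNA.

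The siRNAs against one target were then set against each other. siPARP1-A left 19 genes higher and 5 lower than siPARP1-B did, where 28.4% of all features were higher and 26.5% lower. BIRC5 was at 1.18, PTTG1 at 0.87, FOXM1 at 0.85, AURKA at 0.66, PLK1 and SPC24 at 0.65, ASPM at 0.37, MYBL2 at 0.36, TOP2A at 0.35 and CDC20 at 0.33. ANLN was at -1.28, since it fell with siPARP1-A and rose with siPARP1-B. NCAPH was at -0.41, AURKB at -0.36, CKAP2 at -0.35 and HJURP at -0.31. AURKB lost its call in 7 of 11 alternatives, HJURP in 5, and CDC20 and ASPM in 2 each. The other called genes named for this pair kept theirs in each alternative. AURKB was at -0.19 (adjusted p = 0.409) without siPARP1-A replicate 2. BUB1, BUB3, MKI67 and CENPF did not pass, at 0.01, 0.02, 0.08 and 0.08. siPARP2-A left 45 genes higher and none lower than siPARP2-B did, where 34.3% of all features were higher and 30.6% lower, with a median of 2.41. ANLN was at 3.79, TOP2A at 3.78, NUSAP1 at 3.59, SKA3 at 3.36, BIRC5 at 3.24, MYBL2 at 3.17, PTTG1 at 2.95, CDC20 at 2.92, FOXM1 at 2.80, NEK2 at 2.75, PLK1 and TTK at 2.63, CENPF and AURKB at 2.37, BUB1 at 2.05, MKI67 at 2.03 and AURKA at 1.38. BUB3 (0.03, 95% interval -0.09 to 0.15) and CDC25B (0.12, -0.16 to 0.39) did not pass, and SMC4 (0.23) was at 0.15 (adjusted p = 0.167) without siPARP2-A replicate 1.

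The mean of the siPARP2 groups against the mean of the siPARP1 groups gave 46 genes lower and 1 higher, where 32.2% of all features were lower and 33.3% higher, with a median of -1.28. TOP2A was at -2.28, CENPF at -2.02, MKI67 at -1.94, HMMR at -1.87, FOXM1 at -1.78, PRC1 at -1.60, MYBL2 at -1.59, CDC20 at -1.51, PTTG1 at -1.50, NEK2 at -1.32, PLK1 at -1.28, TTK at -1.20, BIRC5 at -1.13, AURKB at -0.99, BUB1 at -0.85 and AURKA at -0.81, and BUB3 at 0.28. CDC25B was at -0.24, and at -0.14 (adjusted p = 0.204) without siPARP2-B replicate 1. This mean joins groups that differ widely. The summed level of the members was 1767 and 1769 with siPARP2-A and 542.3 and 509.9 with siPARP2-B. It was 1881 and 1868 with siPARP1-A and 1726 and 1765 with siPARP1-B. Among the genes named, siPARP2 and siPARP1 libraries did not overlap for TOP2A, CENPF, MKI67, HMMR, PRC1 and BUB3. For the other genes named they overlapped. The p-values measure the spread between duplicates, not the spread between siRNAs against one target.

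Other genes of mitosis and DNA replication were counted from lists of pathway members, to be read against the shares over all features, which were 14.0% lower and 10.3% higher with UPF1069 and 26.8% lower and 25.8% higher with olaparib. Of 25 other mitotic regulators, 18 fell and none rose with UPF1069 (median -0.30), led by CDCA3 (-0.83) and FAM83D (-0.72), and 25 of 25 fell with olaparib (median -0.82), led by DEPDC1 (-1.19). Of 30 other kinetochore and centromere genes, 13 fell and 1 rose with UPF1069 (median -0.15), with the cohesin protector SGOL2 at -0.84, and 24 fell and 1 rose with olaparib (median -0.60), with CENPN at -1.40. Of 12 other condensin and cohesin genes, 7 fell with UPF1069 and 10 with olaparib. Of 17 genes of the anaphase-promoting complex, 7 fell with UPF1069, and 6 fell and 3 rose with olaparib. Only the olaparib counts of this complex lie near the shares over all features. None of the 5 MuvB core genes passed with UPF1069, and 3 fell with olaparib, led by LIN9 (-0.56).

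The DNA replication list served as a comparator from an earlier phase of the cell cycle. Of 39 replication genes, 4 fell and 5 rose with UPF1069 (median -0.02), where 14.0% of all features fell and 10.3% rose. MCM6 of the replicative helicase was at -0.30 and CDT1, a licensing factor, at 0.46. With olaparib 38 of the 39 fell (median -0.71), led by CDC45 (-1.06) and RRM2, a subunit of ribonucleotide reductase (-1.05). UPF1069 left 38 of the 39 replication genes higher than olaparib did (median 0.75), where 24.2% of all features were higher. The median of the 48 mitotic genes in that comparison was 0.28. With veliparib 8 replication genes fell and 2 rose (median 0.01), where 23.2% of all features fell and 17.2% rose. Neither veliparib count is above the share over all features.

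With siPARP2-B, where 35.2% of all features fell and 30.9% rose, 34 of the 39 replication genes fell and 2 rose (median -1.12), with RRM2 at -3.84 and MCM10 at -3.34. Of the other mitotic regulators 23 of 25 fell and 1 rose, with the kinase PBK at -3.90 and WEE1, an inhibitor of mitotic entry, at 0.45. Other kinetochore genes gave 24 lower and 1 higher of 30, condensin and cohesin genes 11 lower of 12, and the anaphase-promoting complex 7 lower and 7 higher of 17. All 4 MuvB core genes tested fell, with RBBP4 at -1.28. With siPARP1-A, where 28.9% of all features fell and 25.5% rose, 26 of 39 replication genes fell and 2 rose (median -0.37), and 17 of 30 other kinetochore genes fell and 6 rose. The condensin subunit NCAPD3 was at -2.54 with siPARP1-A and at -2.31 with siPARP2-B. With siPARP1-B 12 replication genes fell and 3 rose, where 23.9% of all features fell and 16.4% rose. With siPARP2-A 14 replication genes rose and 3 fell, where 24.5% of all features rose and 24.9% fell.

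Members with and without CHR letters both fell where the set fell. With UPF1069 the 30 genes with CHR letters had a median of -0.55 and all passed, and the 10 without had -0.39 with 8 passing. With olaparib the medians were -0.84 and -0.76, and all 40 passed. With siPARP2-B they were -2.50 for 29 tested genes with CHR letters and -2.05 for 10 without. Within the shown promoters, PLK1, CDC20, MKI67 and ANLN, which carry CHR letters, fell by 2.32 to 3.60 with siPARP2-B, and CDC25B, with none in its stretch, was at -0.13. These promoters were shown because the genes behaved differently, so this contrast follows from the choice. Of the 10 members without CHR letters 9 fell with siPARP2-B, and SMC4, which has CHR letters, was at -0.27. MYBL2 had no CHR letters in its window and fell by 3.43. These values are a description without a test.

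Some counts can hold reads of neighbouring or copied genes, since the strand setting of the counting is not given in the sources used here. In the GENCODE annotation on GRCh38, other genes overlap 62.2% of the exon bases of NUSAP1, 57.6% of PRC1, where an antisense RNA is annotated, 33.1% of NCAPG, 18.5% of SMC4, 15.9% of FOXM1 and 11.6% of PLK1. Pseudogene copies are annotated for 12 members, including CDC20, AURKA, BUB3 and MKI67, and reads of these genes may be split between copies.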

How the data were processed

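RNA was measured in 18 LNCaP libraries, in 9 groups of 2. Per the submitters' processing notes, the tools were bcl2fastq 2.18, TopHat2 2.1.0, HTSeq 0.6.1 and edgeR 3.12.0, with the build hg19. The authors deposited CPM for the inhibitor experiment and, for the siRNA experiment, a normalised read signal per M. Each deposited column steps in whole reads, and 100.0% of its values came out whole within 0.01 of a read once divided by its step. Column sums ran from 990687.8 to 1009473.2 for the inhibitors and from 964646.5 to 1122366.8 for the siRNAs. No column of another sample was present (0).

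Features with a table mean of at least 1 were tested with limma 3.58.1 (trend, R 4.3.3) on log2(value + 1), in one fit over all groups of a table: 13337 features for the inhibitors and 12701 for the siRNAs. The fits had 4 and 5 residual degrees of freedom, and 17.6 and 19 prior degrees of freedom borrowed across genes. Groups with noisier duplicates thus share a variance with quieter groups. p-values were adjusted over all features tested by the Benjamini-Hochberg method, at a threshold of 0.05, and every adjusted p in the text is from limma unless another tool is named. Recovery was tried on counts simulated from the mean levels and dispersions over all libraries of an experiment. For the inhibitors (13337 genes) changes were put into the UPF1069 libraries and tested against DMSO. Changes of 0.25, 0.5, 1 and 2 on the log2 scale were recovered in 52%, 82%, 92% and 100% of changed genes. For the siRNAs (12701 genes), with changes in siPARP1-A tested against siNC, the shares were 16%, 64%, 88% and 100%. Every group had the same dispersion and no trend with GC content, so these shares do not describe the noisier groups or veliparib. Each size was put into 50 genes, so a far smaller share of genes changed than was called in the data. The adjustment of p-values depends on that share, so the recovered percentages are not the sensitivity of the comparisons reported here.

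The 48 genes and all lists were chosen with earlier results of these data known. In each comparison the text names, per role, the called member with the largest change, called members that moved against the majority, members not tested, and PLK1, CDC20, AURKA, AURKB, BUB1, BUB3, TOP2A, MKI67, CENPF, PTTG1, FOXM1, MYBL2 and PIF1. Other genes named were chosen after their values were seen. Alternatives were a pseudocount of 0.25, no filter, edgeR 4.0.16 and DESeq2 1.42.0 on the recovered reads, other size factors, only the groups compared, a replicate block, each library left out, and, for the inhibitor table, a correction for GC content and length of the longest GENCODE transcript. Strand setting and read filters are not given in the sources used here.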

Additional observations from a re-analysis of the deposited data

Results flagged for a closer look

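Of the members, 4 were called in opposite directions by the siRNAs against PARP1. The share of all features with opposite calls is not given here, so this count is not a result about the set. ANLN was at -0.87 with siPARP1-A and 0.41 with siPARP1-B against siNC, a difference of -1.28 (limma adjusted p = 7.98e-11). BIRC5 was at 0.28 with siPARP1-A and -0.90 with siPARP1-B, a difference of 1.18 (1.41e-09). PTTG1 was at 0.57 with siPARP1-A and -0.30 with siPARP1-B, a difference of 0.87 (4.75e-10), and AURKA at 0.39 and -0.27, a difference of 0.66 (5.09e-07). The opposite calls of BIRC5 and AURKA rest on weak changes against siNC. BIRC5 with siPARP1-A lost its call with DESeq2 (0.0501) and without siNC replicate 2 (0.308) or siPARP1-A replicate 2 (0.271). AURKA with siPARP1-B lost its call with DESeq2 (0.0925) and without siNC replicate 1 (0.0839) or siPARP1-B replicate 1 (0.0999).

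For the siRNAs against PARP2, 9 members were called higher with siPARP2-A and lower with siPARP2-B. Since siPARP2-B lowered almost the whole set, nearly any member called higher with siPARP2-A falls under this rule. The count of members called higher with siPARP2-A was not above the share over all features. The share of all features with opposite calls is not given here, so the values describe single genes. The difference was 2.92 for CDC20 (adjusted p = 4.75e-18), 2.88 for NDC80 (7.08e-17), 2.80 for FOXM1 (1.23e-15), 2.7 for ASPM (1.07e-16), 2.63 for PLK1 (1.13e-15), 2.52 for BUB1B (2.58e-17), 2.05 for BUB1 (4.26e-16), 2.03 for MAD2L1 (3.25e-18) and 1.95 for CDCA8 (3.57e-14). The siPARP2-A changes behind these were small, from 0.26 for BUB1 to 0.55 for CDC20, and the siPARP2-B changes ran from -2.50 for NDC80 to -1.53 for CDCA8. The call with siPARP2-A was lost in at least 2 alternatives for PLK1, BUB1, BUB1B, NDC80, FOXM1 and ASPM, and in none for CDC20, MAD2L1 and CDCA8.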

How the results depend on the processing

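Of 159 recomputed counts of called members, 151 stayed within 1.5 times the reported count. Recomputed counts are given without the share over all features in the same setting. The veliparib count against DMSO was 22, and it was 12 with the correction for GC content and length, 11 with that correction and the replicate block together, and 13 to 31 with single libraries left out. The siPARP1-B count was 11 to 17 with libraries left out, and the siPARP2-A count was 10 with DESeq2 and 9 to 15 with libraries left out, against 17 and 18 as reported. Both corrections for GC content and length, without and with the block, turned MAD2L1 with veliparib against DMSO to -0.103 and -0.103 and MYBL2 in UPF1069 against veliparib to -0.0904 and -0.0904.

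With libraries left out, the count was 45 to 46 for UPF1069 and 48 to 48 for olaparib against DMSO, 33 to 37 for UPF1069 against olaparib, 42 to 46 and 48 to 48 for UPF1069 and olaparib against veliparib, 21 to 22 for siPARP1-A and 46 to 47 for siPARP2-B against siNC, 16 to 18 between the siPARP1 siRNAs, 44 to 45 between the siPARP2 siRNAs, and 45 to 47 for the means. The group left with 1 library was assumed to vary like the others. Replicate numbers did not pair the libraries (correlations of deviations -0.141 to 0.115). The replicate block gave 46, 48 and 20 members for UPF1069, olaparib and veliparib against DMSO and 25, 17, 18 and 46 for siPARP1-A, siPARP1-B, siPARP2-A and siPARP2-B. Among values of single genes, 7228 kept direction and call, 250 lost the call, 69 gained it and 4 reversed. Depth limits weakly expressed genes most, with PIF1 under the filter in the siRNA table.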

Other observations

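The siRNAs of a pair also differed in the lists outside the 48 genes. Between siPARP1-A and siPARP1-B, 24 of 39 replication genes were lower with siPARP1-A and 4 higher (median -0.33), and of 30 other kinetochore genes 11 were lower and 7 higher, where 26.5% of all features were lower and 28.4% higher. Between siPARP2-A and siPARP2-B, 34 of 39 replication genes were higher with siPARP2-A and 0 lower (median 1.24), while the anaphase-promoting complex gave 8 higher and 5 lower of 17 (median 0.15), where 34.3% of all features were higher and 30.6% lower.

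With siPARP1-B against siNC, where 23.9% of all features fell and 16.4% rose, 8 of 30 other kinetochore genes fell and 1 rose, 4 of 25 mitotic regulators fell and 2 rose, and 6 of 17 genes of the anaphase-promoting complex fell and 1 rose. With siPARP2-A, where 24.5% of all features rose and 24.9% fell, 10 of the 30 kinetochore genes rose and 2 fell, 7 of the 25 regulators rose and 4 fell, and 7 of the 17 genes of the complex rose and 1 fell. Several of these shares are near those over all features. The counts are by limma at an adjusted p below 0.05, with no test of the lists.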
